A study of Mus musculus with 6 samples.

Results

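The genes of the major histocompatibility complex (MHC, called H2 in the mouse) and of antigen processing were followed in the whole mouse uterus on postnatal day 21, with and without deletion of Nat10, an acetyltransferase that modifies cytidines in RNA. They were chosen by name: the 34 rows whose symbol begins with H2-, plus 13 listed genes (B2m, Cd74, Tap1, Tap2, Tapbp, Erap1, Psmb8, Psmb9, Psmb10, Psme1, Psme2, Nlrc5 and Ciita), or 47 of the 20637 genes in the tables. Of these, 25 belong to class I, 10 to class II and 11 to processing and transcriptional control. The remaining row, H2-Ke6, carries the prefix because of its place in the complex and encodes a hydroxysteroid dehydrogenase of mitochondrial fatty acid synthesis.

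Polyadenylated RNA was sequenced from 3 uteri labelled Nat10 f/f (floxed, called controls here) and 3 labelled Nat10 d/d (called Nat10-deleted here), all from female mice on postnatal day 21. The sources used here do not name the Cre driver, the cells that lose Nat10 or the mouse strain. The strain matters for the most polymorphic genes of the genome, because reads from another H2 haplotype can align less well to the reference. The labels call the libraries replicates without saying that each came from its own animal, so p-values measure the spread between these samples only. Values are FPKM-type units, that is, read abundance per transcript length and library size.

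MHC class I molecules consist of a polymorphic heavy chain and the invariant light chain beta-2-microglobulin, and they show peptides from the cell's own proteins to CD8+ T cells. Nearly every nucleated cell makes them, at a level set by interferons through NLRC5 and IRF factors. The immunoproteasome cuts the peptides, the transporter TAP carries them into the endoplasmic reticulum, and tapasin and ERAP1 load and trim them there. Class II molecules are made mainly by dendritic cells, macrophages and B cells under the control of CIITA, and show peptides from engulfed material to CD4+ T cells. In a whole uterus, fewer cells of a type and less RNA per cell cannot be told apart, which bears most on class II.

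The promoters of these genes are shown because all tested class I members shared their lowest and their highest library, which most class II members did not. Each line gives the 250 bases before a transcription start in RefSeq (GRCm38.p6), written 5′ to 3′ on the gene's own strand. Capitals mark matches on either strand to GAAANNGAA (the core of the interferon-stimulated response element), GGGATTCCC (an NF-kB site), CCAAT (the Y box, which reads ATTGG on the other strand) and TGACG (the core of a cyclic AMP response element).
H2-K1, chr17:34000334-34000583, minus strand: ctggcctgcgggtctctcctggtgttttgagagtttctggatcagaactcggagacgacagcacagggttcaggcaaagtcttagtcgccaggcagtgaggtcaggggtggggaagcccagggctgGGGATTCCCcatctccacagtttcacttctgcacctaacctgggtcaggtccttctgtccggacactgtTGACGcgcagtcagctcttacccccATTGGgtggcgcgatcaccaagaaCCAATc
H2-Q7, chr17:35438905-35439154, plus strand: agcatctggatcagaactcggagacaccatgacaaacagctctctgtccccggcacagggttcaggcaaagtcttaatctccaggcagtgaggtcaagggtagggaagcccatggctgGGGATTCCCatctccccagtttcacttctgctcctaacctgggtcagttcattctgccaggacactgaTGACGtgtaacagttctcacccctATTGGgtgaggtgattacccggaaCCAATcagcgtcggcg
B2m, chr2:122147437-122147686, plus strand: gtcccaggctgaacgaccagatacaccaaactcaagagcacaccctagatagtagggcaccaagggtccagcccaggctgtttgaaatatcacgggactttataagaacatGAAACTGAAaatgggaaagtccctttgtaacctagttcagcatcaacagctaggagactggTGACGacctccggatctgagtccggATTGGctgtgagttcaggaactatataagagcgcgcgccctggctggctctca
H2-T23, chr17:36032702-36032951, minus strand: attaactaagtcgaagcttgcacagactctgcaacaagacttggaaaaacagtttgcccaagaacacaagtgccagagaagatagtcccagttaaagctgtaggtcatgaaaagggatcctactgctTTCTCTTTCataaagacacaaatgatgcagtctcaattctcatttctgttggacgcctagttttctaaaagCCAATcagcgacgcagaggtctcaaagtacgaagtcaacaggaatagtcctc
H2-Aa, chr17:34287824-34288073, minus strand: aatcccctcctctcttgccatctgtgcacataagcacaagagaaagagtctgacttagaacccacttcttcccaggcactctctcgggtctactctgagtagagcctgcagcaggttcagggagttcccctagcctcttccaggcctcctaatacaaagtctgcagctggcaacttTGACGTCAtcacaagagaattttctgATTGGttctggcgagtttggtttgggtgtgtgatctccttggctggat

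The CCAAT letters were found in 9 of the 9 tested class I genes with a promoter in the table and in 5 of 5 tested class II genes, against 33.8% of all 32851 promoters of this length. A gene was counted where any of its promoters matched, while the share is per promoter, and 1 of the 2 H2-DMa promoters had no CCAAT. The NF-kB letters were found in 4 class I genes (H2-K1, H2-D1, H2-Q6 and H2-Q7), which are copies of one another, in 0 class II genes, and in 0.301% of all promoters. The interferon element letters were found in 3 class I genes (B2m, H2-T22 and H2-T23), in 0 of the class II genes and in 7.13% of all promoters. TGACG was found in 7 of the 9 class I genes, in 1 of the 5 class II genes (H2-Aa) and in 17.8% of all promoters. Of the 8 tested processing and regulator genes with a promoter, 3 held CCAAT and 3 held TGACG. The interferon element letters were in 1 of them (Erap1), and the NF-kB letters in 0. A match is a description of the letters, not evidence of a bound site. Only these exact letters were searched, so a promoter without a match can still hold a variant of the element.

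Libraries were alike in size: 15431 to 15680 genes were listed above 0, and relative depth, estimated from the lowest values, differed by at most 1.26 times. The targeted gene had 13.2, 16.4 and 9.95 FPKM-type units in controls 1, 2 and 3 and 5.57, 5.23 and 5.53 in Nat10-deleted replicates 1, 2 and 3, with no overlap. All 14 uterine marker genes were present, with summed values of 4232 to 4449 in controls and 3674 to 4677 in deleted uteri. Single markers differed under these sums. Pgr was 73.8, 62.2 and 60.3 in controls against 35.3, 25.4 and 32.6. Foxa2 was also lower without overlap, while Wnt7a and Epcam were higher without overlap. Of all tested genes, 4.6% were separated as lower and 6.12% as higher. Nat10-deleted replicate 2 stood apart from the other 5 libraries in Mki67, a gene of dividing cells, which was 24 there and 1.28 to 10.7 elsewhere. In the limma fit over all genes, 0 of 12640 tested genes (0%) had an adjusted p under 0.05, and the smallest adjusted p was 0.669.

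Among class I genes, all 11 that passed the filter (3 or more libraries at 1 or above) were higher on average in Nat10-deleted uteri, but 0 of them passed the test. The median log2 change was 0.73, against 0.03 over all genes tested, of which 56.6% were higher on average. At an unadjusted p under 0.05 there were 8 of the 11, all higher, where the share over all genes was 2.68% higher and 2.3% lower. Class I values overlapped between the groups in 9 of the 11 genes. The 2 exceptions were H2-Q6 and H2-Q7, both higher in every deleted library, against a background of 6.12% of genes separated in this direction and 4.6% in the other. The limma adjusted p of class I genes ranged from 0.922 to 0.953.

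Single libraries weighed heavily on these counts. Leaving out Nat10-deleted replicate 1 reduced the 8 class I genes to 1 and the median change to 0.49, and H2-M3 was then lower on average (-0.02), where 1.65% of all genes were higher at this level. Leaving out control replicate 1 reduced them to 2 with a median of 0.50 (also 1.65% of all genes), and leaving out control replicate 2 also gave 2, with a median of 0.72 (1.92%). There were 8 without control replicate 3, where the share of all genes was 1.71%. Leaving out Nat10-deleted replicate 3 gave 4 and leaving out replicate 2 gave 9, in fits where the shares of all genes were larger, at 5.87% and 7.09%. Scaling mattered less for direction than for the count: quantile normalization left 4 genes, and median centring or upper-quartile scaling left 5, with all 11 still higher on average. In 6 of the 11 genes the fitted change moved by over 1.5 times or changed sign without Nat10-deleted replicate 1, and likewise in 6 without control replicate 1. Over all genes the same scalings turned the balance at this level from 339 higher and 291 lower to 259 and 414, 248 and 376, and 232 and 399.

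The classical heavy chains H2-K1 and H2-D1, which present peptides to most CD8+ T cells, made up between 64.7% and 71.1% of the summed class I heavy chain values in every library. H2-K1 (ENSMUSG00000061232; chr17:33996017-34000347) had values of 139, 233 and 311 in control replicates 1, 2 and 3 and of 527, 301 and 345 in Nat10-deleted replicates 1, 2 and 3. The lowest deleted library lay just inside the control range, below control replicate 3. The control mean was 227 ± 86.1 and the mean of deleted uteri 391 ± 120 (SD, n = 3 each), a log2 change of 0.81 (SE 0.32, limma adjusted p 0.922) that was 0.50 when the first control was left out. H2-D1 (ENSMUSG00000073411; chr17:35262730-35267499) had 130, 181 and 260 in controls and 424, 242 and 288 in deleted uteri, a log2 change of 0.75 (SE 0.29). The ratio of H2-K1 to H2-D1 stayed between 1.07 and 1.28 in all 6 libraries, so both chains moved by nearly the same factor from library to library.

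B2m, the light chain shared by all class I molecules and the most abundant of the members, lies apart from the complex, at chr2:122147686-122153083. Controls 1, 2 and 3 had 345, 570 and 706, and Nat10-deleted replicates had 1494, 777 and 680. Nat10-deleted replicate 1 held 2.12 times as much as the highest control, while replicate 3 was inside the control range. The log2 change was 0.83 (SE 0.36), or 0.49 with deleted replicate 1 left out and 0.54 with the first control left out. Relative to the summed heavy chains, B2m was 0.835 to 0.975 in controls and 0.75 to 1.02 in deleted uteri, so its ratio to them overlapped between groups.

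**Figure D1:**
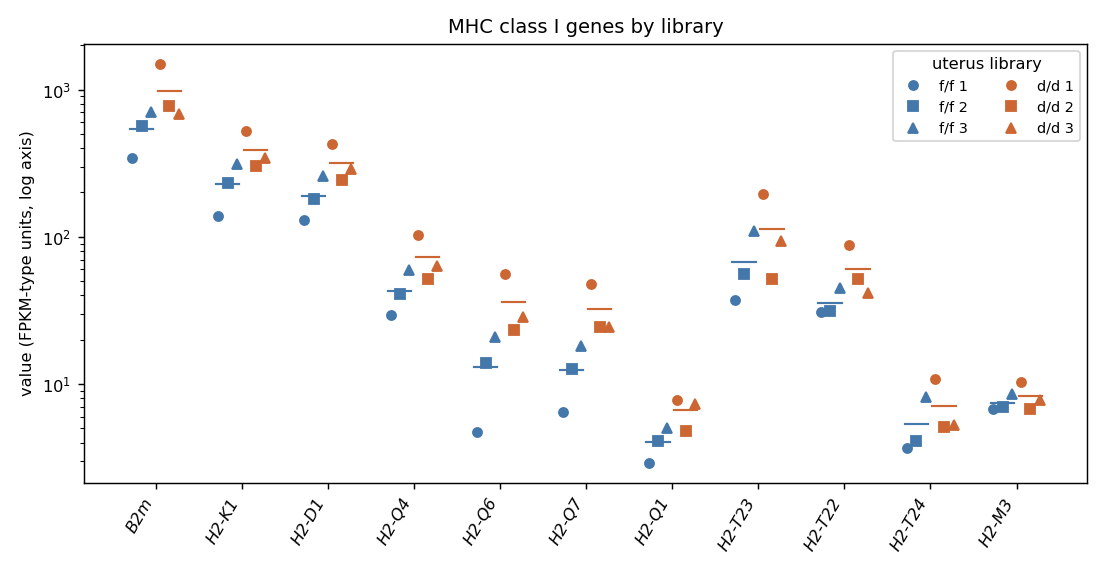
Values of the 11 tested MHC class I genes in each library (y axis, FPKM-type units on a log axis; 1 column of points per gene; blue for Nat10 f/f, orange for Nat10 d/d, symbols for replicate numbers, bars for group means). In every gene the lowest point is f/f replicate 1 and the highest is d/d replicate 1.

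The class Ib genes of the H2-Q, H2-T and H2-M clusters encode less polymorphic heavy chains. H2-Q6 and H2-Q7, which encode Qa-2 antigens, had the largest changes of the members. H2-Q7 (chr17:35439155-35443773) was 6.41, 12.6 and 18.1 in controls and 47.5, 24.4 and 24.3 in deleted uteri. H2-Q6 (chr17:35424850-35430055) was 4.72, 13.9 and 20.7 in controls and 55.5, 23.5 and 28.7 in deleted uteri. Every deleted library was above every control in both genes, and the exact two-sided permutation p of 0.1 is the lowest possible with 3 against 3. The log2 changes were 1.34 (SE 0.38) for H2-Q7 and 1.49 (SE 0.50) for H2-Q6, with a limma adjusted p of 0.922 for each. Without control replicate 1 the changes were 0.968 for H2-Q7 and 0.941 for H2-Q6. Without Nat10-deleted replicate 1 they were 1.03 and 1.135.

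Together H2-Q6 and H2-Q7 made up 2.84% to 4.59% of the class I heavy chain sum in controls. In deleted uteri they made up 5.85% to 7.01%, without overlap. The pair already separated gene by gene, so this share is not independent support. These genes share sequence with each other and with further genes. Of all 100-base windows of the H2-Q7 transcript, 16.4% also occur in transcripts of other genes, 11.7% in H2-Q6, and of its 50-base windows 34.9% and 19.3% do. Their sum, an alternative added after the data were seen, was 11.1, 26.5 and 38.8 in controls and 103, 47.9 and 53.0 in deleted uteri. Its log2 change was 1.46. Because both genes separated on their own, their sum could not overlap, so its separation adds no support. Reads shared with other genes were not accounted for in this sum.

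H2-Q4, whose product is secreted as Qb-1, was 29.2, 40.6 and 59.4 in controls and 102, 51.6 and 63.6 in deleted uteri (log2 change 0.73). H2-Q1 was 2.90, 4.11 and 5.04 in controls against 7.80, 4.77 and 7.33 (0.60). H2-T23 encodes Qa-1, a ligand of the CD94/NKG2A receptor of natural killer cells, and was 37.1, 56.0 and 109 in controls against 194, 51.8 and 94.1 (0.68, SE 0.52). For H2-T23, Nat10-deleted replicates 2 and 3 both lay inside the control range, and without replicate 1 its change was 0.19. H2-T22, a ligand of some gamma-delta T cells, was 30.8, 31.2 and 44.7 in controls against 88.1, 51.5 and 41.2 (0.69), and 44.7% of its 50-base windows also occur in other genes, mainly H2-T10. H2-T24 was 3.69, 4.12 and 8.15 against 10.8, 5.14 and 5.28 (0.35), a change that was 0.04 with deleted replicate 1 left out. H2-M3, which presents formylated peptides of bacteria and mitochondria, was the flattest, at 6.79, 7.0 and 8.56 against 10.4, 6.80 and 7.84 (0.13).

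The remaining 14 class I rows did not pass the filter. H2-T3, H2-M1, H2-M11 and the 6 H2-M10 rows (H2-M10.1 to H2-M10.6), known mainly from the vomeronasal organ and the gut, were listed at 0 in all 6 libraries. H2-M2, H2-M5, H2-M9, H2-Q2 and H2-Q10 were under 1 in each library, the highest value being 0.981 for H2-Q2 in Nat10-deleted replicate 1.

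The tested class I genes shared the order of the controls and both extremes, while Nat10-deleted replicates 2 and 3 changed places among them. Nat10-deleted replicate 1 was the highest of the 6 libraries in 11 of 11 genes, where 18.5% of all tested genes had their highest value there. Control replicate 1 was the lowest of the 6 in 11 of 11, against 10.4% of all genes, and control replicate 3 was the highest control in 11 of 11, against 31.3%. The 25 class I rows summed to 737, 1155 and 1552 in controls and to 2963, 1541 and 1586 in deleted uteri. Nat10-deleted replicates 2 and 3 thus reached 99.3% and 102.2% of the sum in control replicate 3, and replicate 1 reached 190.9%.

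As a list, interferon response genes had the same order of controls. The 12 listed markers, all tested, summed to 157, 364 and 757 in controls and to 1571, 657 and 444 in deleted uteri, and 12 of 12 were higher on average, with 0 at an unadjusted p under 0.05. With the control mean of each gene set to 0, their median log2 level was -1.11, 0.02 and 1.09 among controls and 2.09, 0.83 and 0.25 among deleted uteri, against -0.49, -0.01 and 0.51, and 1.28, 0.40 and 0.62, for class I. The libraries with the lowest and highest values were the same in both lists, while Nat10-deleted replicate 3 lay below control replicate 3 for interferon markers and above it for class I. The 7 interferon gamma markers summed to 122, 189 and 381 in controls and to 618, 293 and 163 in deleted uteri. Of the 6 tested, 6 were higher on average, with 0 at an unadjusted p under 0.05. Nat10-deleted replicate 3 lay below control replicate 2 in this sum. Blood markers ran in the opposite direction, with sums of 5581, 2629 and 851 in controls and 709, 1723 and 1111 in deleted uteri. These 5 genes were between 0.132% and 1.06% of the summed values of a library. The part of any of these marker lists in the class I values was not tested.

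**Figure D2:**
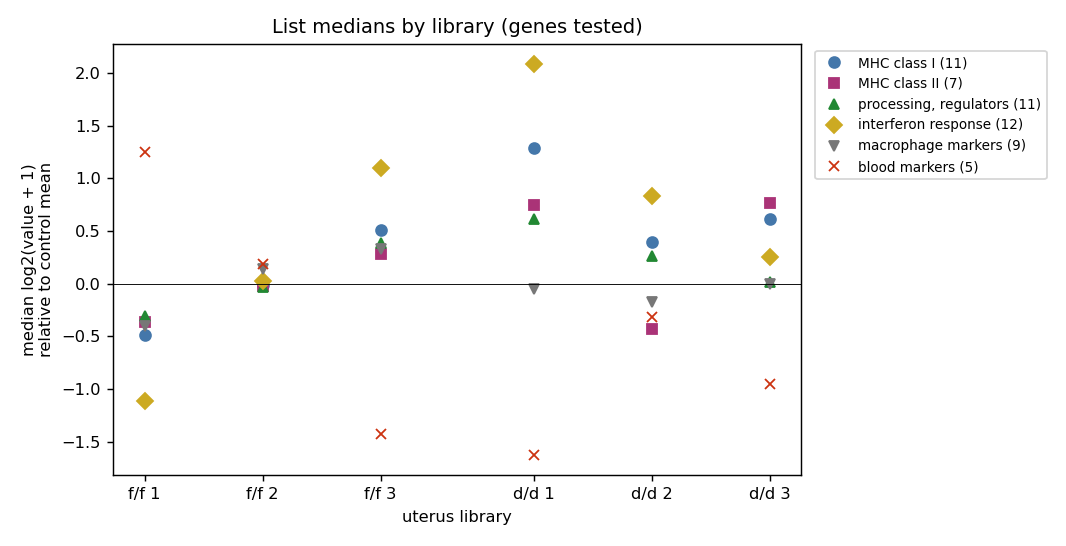
Median log2(value + 1) of each list relative to its control mean (y axis) in each library (x axis), for tested class I, class II and processing genes and for interferon, macrophage and blood markers, with the number of genes in the legend. Class I medians run from -0.49 in f/f replicate 1 to 1.28 in d/d replicate 1, and class II is lowest in d/d replicate 2 at -0.43.

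Of the 11 processing and regulator genes, all tested, each had a fitted change above 0, with a median of 0.29, and 0 passed the test. Nlrc5 and Ciita passed the filter only with the help of deleted libraries, having fewer than 3 controls at 1 or above, so their share in this count is no support for a direction. The direction was not stable for the flat ones: 5 of the 11 were lower on average without control replicate 1, and 3 without Nat10-deleted replicate 1, and Erap1 was lower on average under each of the 3 other scalings. Only Psme2 reached an unadjusted p under 0.05 (1 of 11, against 2.68% over all genes). Nat10-deleted replicate 1 was the highest library in 7 of the 11 and control replicate 1 the lowest in 8.

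Psme2 encodes the beta subunit of the PA28 activator, which opens the proteasome and is induced by interferon gamma. It was 56.4, 41.3 and 52.4 in controls and 86.0, 93.2 and 65.7 in deleted uteri, so the groups did not overlap (log2 change 0.69, SE 0.17, limma adjusted p 0.922; exact two-sided permutation p 0.1). Its order differed from that of class I, with Nat10-deleted replicate 2 the highest and control replicate 2 the lowest. Psme2b, a near-identical copy, holds 44.5% of the 100-base windows and 59.3% of the 50-base windows of the Psme2 transcript and was 25.1, 46.8 and 41.3 in controls against 50.2, 51.2 and 25.5. The sum of the pair, an alternative added after the data were seen, was 81.5, 88.1 and 93.7 against 136, 144 and 91.2 (log2 change 0.47), so with the copy included the groups did overlap. Psme1, the alpha subunit, lies near Psme2 on chromosome 14 and was 106, 138 and 145 in controls against 197, 154 and 127 (0.29).

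The immunoproteasome subunits Psmb8, Psmb9 and Psmb10 replace the constitutive catalytic subunits encoded by Psmb5, Psmb6 and Psmb7. Psmb8 was 29.3, 41.6 and 62.2 in controls and 90.1, 69.0 and 45.9 in deleted uteri (log2 change 0.62, SE 0.32). Psmb9 was 17.6, 27.4 and 47.2 against 54.2, 46.8 and 24.9 (0.47), and Psmb10 was 32.5, 34.6 and 50.4 against 46.5, 46.1 and 30.9 (0.07). Each overlapped between the groups, and Nat10-deleted replicate 3 was below control replicate 3 in each. Set against its constitutive partner, Psmb8 per Psmb5 was 0.268, 0.397 and 0.582 in controls and 1.06, 0.463 and 0.488 in deleted uteri, so only Nat10-deleted replicate 1 left the control range. The other pairs differed from this: Psmb9 per Psmb6 was 0.158 to 0.483 in controls and 0.27 to 0.474 in deleted uteri, all inside the control range. Psmb10 per Psmb7 was 0.275 to 0.53 in controls and 0.244 to 0.395 in deleted uteri, with replicate 2 below every control. Psmb5 itself had a log2 change of -0.02, Psmb6 of 0.14 and Psmb7 of 0.27. In Nat10-deleted replicate 2, however, Psmb5, Psmb6 and Psmb7 were 149, 159 and 189. The other libraries had 84.6 to 109, 92.1 to 115 and 95.2 to 118. The ratios of replicate 2 thus rest on high denominators.

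Tap1, a subunit of the peptide transporter, was 12.5, 16.8 and 37.4 in controls and 50, 35.6 and 25 in deleted uteri (log2 change 0.80, SE 0.40). Its partner Tap2 was 20.3, 23.1 and 33.1 against 30.1, 25.1 and 27.0 (0.13), with all 3 deleted libraries inside the control range. Tapbp, which encodes tapasin, was 64.2, 80.1 and 99.9 against 101, 83.7 and 80.9 (0.14), and Erap1, the trimming peptidase, was 17, 19.9 and 20 against 20.4, 20.6 and 16.8 (0.02). The partners of the transporter thus varied by different factors: the highest control was 2.99 times the lowest for Tap1 and 1.63 times for Tap2. Tap1 and Psmb9 stand head to head on chromosome 17 and overlap by 212 bases in the annotation, so a few reads there could count for either.

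Nlrc5, the transactivator of class I genes, had 0.785, 1.92 and 3.51 in controls and 6.0, 2.82 and 1.72 in deleted uteri (log2 change 0.54, SE 0.43). It spanned 4.47 times among controls, with its lowest value in control replicate 1 and its highest in Nat10-deleted replicate 1, as the class I genes did. Ciita, the transactivator of class II, was 0.560, 0.920 and 1.42 in controls and 1.54, 0.605 and 1.07 in deleted uteri (0.07, SE 0.25), with low values in every library. Both regulators overlapped between the groups. Leaving out control replicate 1 gave a change of 0.20 for Nlrc5, and leaving out the third control gave 0.87. It was 0.17 when deleted replicate 1 was left out and 0.85 when deleted replicate 3 was. Among the 11 processing and regulator genes, 10 moved by over 1.5 times or changed sign without control replicate 1, and 9 without Nat10-deleted replicate 1.

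**Figure D3:**
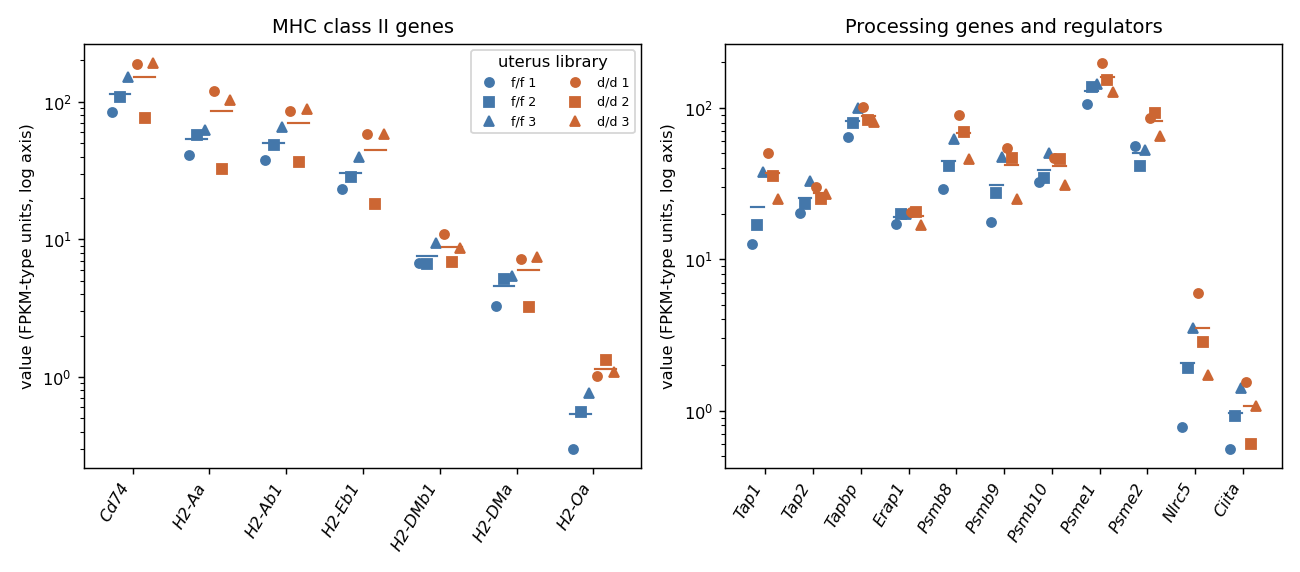
Values of the 7 tested class II genes (left) and the 11 processing and regulator genes (right) in each library (y axis, FPKM-type units on a log axis; colours, symbols and bars for f/f and d/d replicates and group means). In Cd74, H2-Aa, H2-Ab1, H2-Eb1 and H2-DMa the d/d libraries split, with replicate 2 below every control and replicates 1 and 3 above every control.

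Among class II genes, 7 of 10 passed the filter, all 7 were higher on average (median log2 change 0.39) and 0 passed the test. H2-Oa had to differ to be tested, because only the deleted libraries reached a value of 1; the other 6 had fitted changes from 0.19 to 0.48 and none had an unadjusted p under 0.05. The deleted libraries differed among themselves. Nat10-deleted replicate 2 was the lowest of the 6 libraries in 5 of the 7 genes, where 25.7% of all tested genes had their lowest value. The 10 class II rows summed to 199, 256 and 337 in controls and to 474, 176 and 461 in deleted uteri, so that deleted replicates 1 and 3 lay above and replicate 2 below all controls.

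Cd74, the invariant chain that escorts class II molecules to the endosome, was 85.1, 108 and 152 in controls and 188, 75.9 and 191 in deleted uteri (log2 change 0.32, SE 0.38). H2-Aa and H2-Ab1 encode the chains of the I-A molecule. H2-Aa was 40.9, 57.5 and 62.6 in controls against 119, 32.7 and 104 (0.48, SE 0.46), and H2-Ab1 was 37.8, 48.6 and 65.4 against 85.6, 36.5 and 88.2 (0.39). H2-Eb1, the beta chain of I-E, was 23.4, 28.6 and 39.4 against 58.5, 18.1 and 58.5 (0.40). In each of these genes the spread among deleted uteri, at 2.42 to 3.65 times from lowest to highest, was wider than among controls, at 1.53 to 1.78 times.

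H2-DMa and H2-DMb1 encode the exchange factor that removes the invariant chain fragment and lets peptides bind. H2-DMa was 3.27, 5.14 and 5.41 in controls and 7.2, 3.21 and 7.43 in deleted uteri (0.26). H2-DMb1 was 6.75, 6.67 and 9.38 against 11, 6.88 and 8.63 (0.19). H2-Oa, a subunit of the inhibitor of that factor, was 0.301, 0.554 and 0.761 in controls and 1.02, 1.34 and 1.08 in deleted uteri, without overlap, at values close to the filter (log2 change 0.49, or 1.03 with a pseudocount of 0.1 in place of 1; limma adjusted p 0.922 and 0.925). Its partner H2-Ob was 0.756, 0.439 and 0.731 against 1.47, 0.442 and 0.793 and was not tested. H2-DMb2 (0.306 to 1.61) and H2-Eb2 (0.0545 to 0.427) were not tested either.

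Without Nat10-deleted replicate 2, the median class II change was 0.76 and 5 of the 7 genes had an unadjusted p under 0.05, in a fit where 7.09% of all genes were higher at this level, but 0 passed the adjusted threshold (smallest limma adjusted p 0.12). Without Nat10-deleted replicate 1 the median was 0.13, without replicate 3 it was 0.18, and without control replicate 1 it was 0.21. In each of these fits 0 class II genes had an unadjusted p under 0.05. The shares of all genes higher at this level were 1.65%, 5.87% and 1.65%. Without control replicate 3 the median was 0.59.

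Markers of the cells that make class II were present in all libraries at low levels, and 0 of the marker genes was at 0 throughout. The 9 macrophage markers summed to 156 to 238 in controls and to 222, 168 and 207 in Nat10-deleted replicates 1, 2 and 3. The 6 dendritic cell markers, of which 3 were tested, summed to 9.24 to 10.7 in controls and to 12.1, 9.68 and 11.3 in deleted uteri, and the 3 pan-leukocyte markers to 22.9 to 36.5 and to 31.7, 30.1 and 33.3. The 4 B cell markers summed to 0.677 to 1.60 in controls and 1.63 to 3.07 in deleted uteri, and the 6 T and NK cell markers to 3.78 to 7.79 and 5.27 to 7.14. Each of these 5 sums was lowest in replicate 2 among deleted uteri, the library in which class II was lowest. Against controls the likeness did not hold, because class II in that library was below every control. Its B cell sum of 1.63 was above every control, and its other marker sums lay inside the control range. The part of these markers in the class II values was not tested.

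**Figure D4:**
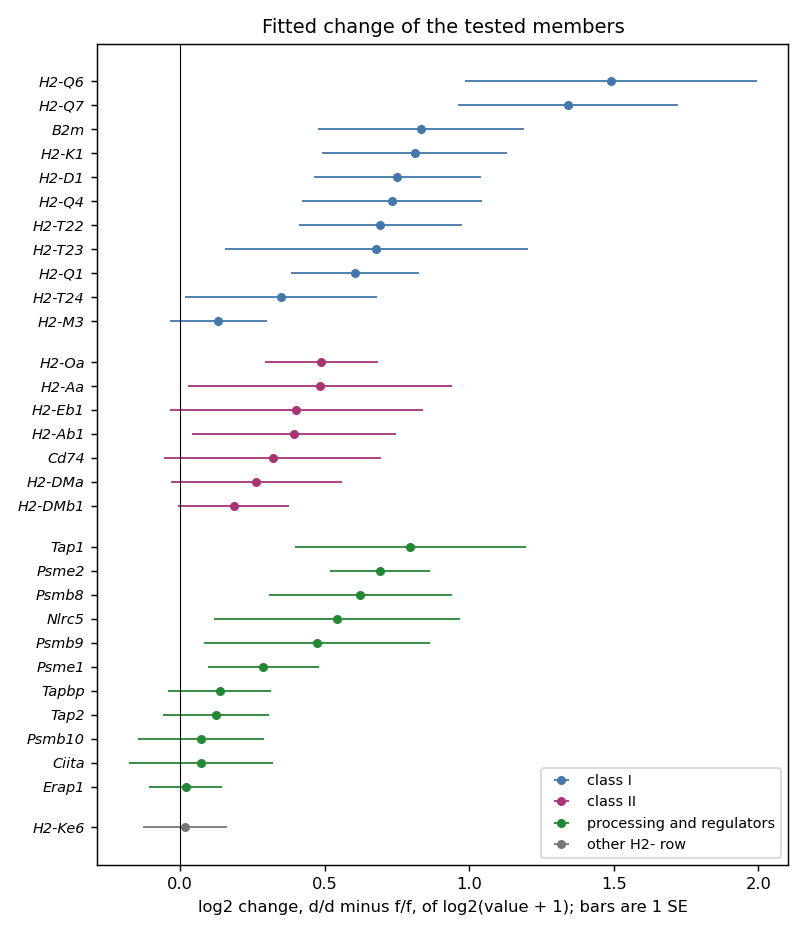
Fitted log2 change (x axis, Nat10 d/d minus f/f on log2(value + 1); bars are 1 standard error) of the 30 tested members, grouped as class I, class II, processing and regulators, and H2-Ke6. H2-Q6 (1.49) and H2-Q7 (1.34) have the largest changes, and Erap1 and H2-Ke6 (0.02 each) lie next to 0.

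Of the other genes of the pathway, 36 were tested, and 21 of them were higher and 15 lower on average, with a median log2 change of 0.05 and 0 at an unadjusted p under 0.05. The 5 with the smallest p were Nfyb (log2 change 0.29) and Nfyc (0.21), subunits of the factor that binds the CCAAT box (its other subunit gene, Nfya, was -0.14), Fcgrt (-0.41), the neonatal Fc receptor, Ctss (0.64), and Lnpep (-0.35), an aminopeptidase of endosomes. Ctss encodes cathepsin S, which cuts the invariant chain, and was 10.1, 14.7 and 17.5 in controls and 30.5, 13.2 and 25.8 in deleted uteri. Its deleted libraries stood in the same order as those of H2-Aa, with replicate 2 lowest.

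All 34 H2- rows lie between positions 33996017 and 37483552 of chromosome 17 (GRCm38, the annotation's name for mm10), as do Tap1, Tap2, Psmb8 and Psmb9. The 77 other tested genes in this stretch were centred on a log2 change of 0.02 (median). Of them, 42 were higher on average, and at an unadjusted p under 0.05 there were 1 higher and 3 lower. Nat10-deleted replicate 1 was the highest library in 12 of them and control replicate 1 the lowest in 11, against 18.5% and 10.4% of all genes. H2-Ke6, at 35.4, 35.3 and 28.6 in controls and 29.7, 39.2 and 31.7 in deleted uteri, had a log2 change of 0.02, and 62.9% of its 50-base windows also occur in Gm20427. Its direction was negative after quantile normalization, median centring and upper-quartile scaling.

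With array quality weights, which let limma trust libraries unequally, 7 of the 11 class I genes had an adjusted p under 0.05, as did 0 of the 7 class II genes and Psme2 among the processing genes, all higher. Over all genes 1.16% were called as higher in that fit. The weights were 3.74 for Nat10-deleted replicate 1, 0.224 and 0.451 for replicates 2 and 3, and 1.15 to 1.92 for controls, so that the class I median of 1.25 in that fit was close to the level of replicate 1 alone.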

How the data were processed

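Extraction used TRIzol, and the library kit was Illumina's TruSeq RNA, per the labels' protocols. HISAT2 2.2.1, Cufflinks 2.2.1 and mm10 are named in the submitters' processing notes; annotation, gene filter and strandedness are not given in the sources used here. The values the authors deposited are FPKM-type values, inferred from the numbers and from Cufflinks, since neither labels nor headers name the unit. Read counts per library are unknown, so no counting intervals are given; relative depth was estimated from the most frequent ratio of low values.

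Values were analysed as log2(value + 1) with limma 3.58.1 (R 4.3.3; lmFit, eBayes with trend, group as the only term) over the 12640 genes that reached 1 in 3 or more libraries. Two-sided p-values were adjusted over all these genes (Benjamini-Hochberg), with a threshold of 0.05. The fit was tested on simulated data. Fold changes on this scale understate those of low genes. Members, gene lists and the naming rule (the listed genes, the classical and class II chains, and other H2- rows with a mean of at least 5) were chosen with earlier results of these data known. Python 3.11.15 with pandas 2.3.3 was used for the tables and matplotlib 3.10.9 for the figures. Gene positions come from GENCODE M21 and promoters from RefSeq, of which 40 of the 47 members had one, 23 of them among the 30 tested. Marchf1 and Marchf8, on the pathway list, were not analysed here. Transcript windows of 50 and 100 bases were compared with all GENCODE transcripts. The genes B2m, Ciita, H2-DMa and Tapbp overlap other genes (Patl2, Dexi, Brd2 and Zbtb22) in the annotation; Patl2 was listed at 0 in all libraries.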

Additional observations from a re-analysis of the deposited data

How the results depend on the processing

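Array quality weights were the setting that changed calls most: they gave 316 called genes in all, 7 class I genes, 1 processing gene (Psme2) and a class I median log2 change of 1.25. Leaving out 1 library at a time gave 0 to 12 called genes in all, 0 among the members, and medians of 0.488 to 1.00 for class I, 0.129 to 0.757 for class II and 0.125 to 0.438 for processing genes; the 12 came without Nat10-deleted replicate 2. With the replicate number as a block (replicate block), 0 genes were called, the medians kept their values of 0.734, 0.394 and 0.289, and the class I genes at an unadjusted p under 0.05 went from 8 to 3, while the higher genes at that level over all 12640 went from 339 to 420; samples with equal numbers deviated with correlations of -0.341, -0.029 and 0.1, so the numbers do not pair them. Without the low-value filter the class I median was 0.64 over 16 rows, 13 higher and 3 lower. Of 465 pairs of a named gene and an alternative setting, 435 kept direction and side of the threshold, 9 became called and 21 changed sign, all of them among genes with small changes. Erap1 was -0.021, -0.009 and -0.02 and H2-Ke6 -0.033, -0.012 and -0.024 after quantile normalization, median centring and upper-quartile scaling, and H2-Ke6 was -0.13 with array weights. Leaving out control replicate 1 gave -0.054 for Erap1, -0.082 for Ciita, -0.02 for Tapbp, -0.018 for Tap2 and -0.044 for Psmb10, and leaving out control replicate 2 gave -0.001 for Psmb10. Without control replicate 3, H2-Ke6 was -0.083. Without Nat10-deleted replicate 1, H2-M3 was -0.02, Erap1 -0.023, Ciita -0.086 and Psmb10 -0.024. Without Nat10-deleted replicate 2, Erap1 was -0.029, Psmb10 -0.018 and H2-Ke6 -0.098. The highest values with 1 library left out were 0.254 for H2-M3, 0.11 for Erap1, 0.244 for Ciita, 0.295 for Tapbp, 0.323 for Tap2, 0.266 for Psmb10 and 0.096 for H2-Ke6. The cause was not tested. The summed heavy chains gave 0.80 where H2-K1 alone gave 0.81.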
